A study of Rattus norvegicus with 28 samples.

Results

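Renal sodium chloride transport was described through 9 genes: the cotransporters Slc12a1 and Slc12a3, the exchanger Slc9a3, the kinases Stk39, Wnk1 and Wnk4, the potassium channel Kcnj1, the sodium pump subunit Atp1b1 and the urinary protein Umod. Members were chosen by gene symbol in the platform annotation, and each was represented by its probe set of highest mean over 28 arrays. Of the 9 genes 8 were measured, out of 14217 genes with a probe set of their own. Wnk4 appeared only on 2 probe sets that also carry the symbols of other genes, so it is not analysed here. The 8 genes held 14 probe sets: 5 genes had 1, and Stk39, Wnk1 and Atp1b1 had several.

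RNA came from whole kidneys of female rats of the strains SBN/y and SBH/y, on 1-colour Affymetrix arrays, with 7 arrays in each of 4 groups. The groups were SBN/y with 2 kidneys, SBN/y with 1 kidney, SBH/y with 2 kidneys and SBH/y with 1 kidney. Animals with 2 kidneys had a sham operation, and those with 1 kidney had lost the right one by uninephrectomy. In all 4 groups the animals ate standard chow freely and were 5 months old, 4 months after the operation. Both are Sabra rats: SBH/y is known to become hypertensive on a high salt intake and SBN/y to stay normotensive. The series' title names proteinuria as its subject. The strains are inbred and differ at many loci, and no salt load is given in the labels. Base changes under the probes were not checked, so a strain difference here is one of probe signal. Nothing in the labels ties each array to its own animal, so a p-value here reflects the spread among arrays of a group, which may be technical. In each group with 1 kidney 1 array stood apart from the others in its circadian clock genes (replicate 6 of SBN/y and replicate 2 of SBH/y).

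The kidney recovers filtered sodium chloride in segments placed in series. Slc9a3 (the exchanger NHE3) takes up sodium in the proximal tubule, Slc12a1 (the cotransporter NKCC2) in the thick ascending limb and Slc12a3 (the thiazide-sensitive cotransporter NCC) in the distal convoluted tubule. Kinases of the WNK family phosphorylate Stk39 (the kinase SPAK), which in turn phosphorylates and activates both cotransporters. Much of this control acts on phosphorylation and on the place of the protein in the cell, which RNA levels do not show. Kcnj1 (the channel ROMK) returns potassium to the lumen of the thick ascending limb so that Slc12a1 can keep working, Atp1b1 is the beta subunit of the pump that drives all these steps, and Umod (uromodulin) is the main protein made by the thick ascending limb.

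RefSeq windows of 250 bases before a start site (build GRCr8) were read for 7 of the 8 genes. Those of Slc12a1, Kcnj1 and Umod are not shown, though Kcnj1 had the largest called strain difference of the 8. Those of the other 4 genes are shown as examples of unlike patterns. The strains did not overlap in Stk39 and Wnk1, and Slc12a3 rose after uninephrectomy in SBH/y. The order of the strain means of Slc9a3 turned around after it, with no call. Each is written 5′ to 3′ on the gene's strand and ends at the base before the start, with the E-box, GC box and TATA box letters in capitals.
Slc9a3 chr1:30996003-30996252 (minus strand): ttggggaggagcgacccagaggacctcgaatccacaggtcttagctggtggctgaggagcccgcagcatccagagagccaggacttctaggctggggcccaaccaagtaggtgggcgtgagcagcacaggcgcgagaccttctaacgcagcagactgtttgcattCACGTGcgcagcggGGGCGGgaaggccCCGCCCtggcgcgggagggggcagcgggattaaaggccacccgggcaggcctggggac
Slc12a3 chr19:10675051-10675300 (minus strand): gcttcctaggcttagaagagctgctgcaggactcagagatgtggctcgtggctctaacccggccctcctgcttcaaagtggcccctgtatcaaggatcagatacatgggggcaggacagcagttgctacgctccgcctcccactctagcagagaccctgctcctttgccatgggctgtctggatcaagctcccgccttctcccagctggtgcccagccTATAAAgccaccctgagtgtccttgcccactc
Stk39 chr3:73586980-73587229 (minus strand): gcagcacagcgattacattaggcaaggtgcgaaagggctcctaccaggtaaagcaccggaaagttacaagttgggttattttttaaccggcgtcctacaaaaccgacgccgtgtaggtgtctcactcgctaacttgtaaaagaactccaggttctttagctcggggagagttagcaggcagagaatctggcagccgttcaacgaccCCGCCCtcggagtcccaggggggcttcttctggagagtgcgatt
Wnk1 chr4:154926148-154926397 (minus strand): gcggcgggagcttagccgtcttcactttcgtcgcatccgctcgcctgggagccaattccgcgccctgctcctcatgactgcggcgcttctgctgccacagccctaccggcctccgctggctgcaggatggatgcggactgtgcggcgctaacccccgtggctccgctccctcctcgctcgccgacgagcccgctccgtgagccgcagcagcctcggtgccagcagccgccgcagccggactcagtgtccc

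The Slc9a3 window held an E-box, CACGTG, the sequence that clock transcription factors are known to bind, at -85 to -80. No other window of the 7 genes held an E-box, those of Kcnj1 included. The Slc9a3 window also held the GC box GGGCGG at -71 to -66 and, on the other strand, at -58 to -53. The Slc12a3 window held the TATA box TATAAA at -32 to -27, and the Stk39 window a GC box on the other strand at -44 to -39. The Wnk1 window held none of these. Of 33469 windows of this length 5.59% held an E-box on either strand, 30.5% a GC box and 12.9% a TATA box. The D-box TTANGTAA (2.04% of all windows) and a steroid receptor element (0.373%) were in none of the 9 windows of the 7 genes. The starts of Slc9a3, Slc12a3 and Stk39 lie inside the annotated spans of these genes (chr1:30953215-30996209, chr19:10636594-10690008 and chr3:73321522-73588397), while that of Wnk1 lies at the end of its span (chr4:154800590-154926147). These are the reference's letters, not those of SBN/y or SBH/y.

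Values are log2 signal after robust multi-array averaging (RMA), a method that puts arrays on 1 scale, so they are compared between groups and never between genes. The value after ± is the SD of 7 arrays for a mean and the limma standard error for a difference. A difference was called when its limma p, adjusted over 31042 probe sets, was under 0.05. Strain differences are SBH/y minus SBN/y, uninephrectomy effects are 1 minus 2 kidneys, and the interaction is the difference between these effects, SBH/y minus SBN/y. Each strain difference shares a group with each uninephrectomy effect, so their values are not independent.

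In SBH/y kidneys the transport genes were lower or not called. With 2 kidneys 4 of 8 were lower than in SBN/y (Slc12a1, Stk39, Wnk1, Atp1b1) and 0 higher, where 17.9% of all probe sets were called, 8.31% lower and 9.64% higher. With 1 kidney 5 of 8 were lower (the same 4 and Kcnj1) and 0 higher, against 21.5% of all probe sets called, 10.3% lower and 11.1% higher. At an unadjusted limma p under 0.05, 6 of 8 were lower with 2 kidneys (Slc12a3 and Slc9a3 besides), 5 of 8 with 1, and 0 higher in either. The share of all probe sets with an unadjusted p under 0.05 was not counted in any comparison. Unadjusted counts, here and below, therefore cannot be set against it. The median difference of the 8 genes was -0.15 with 2 kidneys and -0.18 with 1, and that of all probe sets -0.016 and -0.011. After uninephrectomy 0 of 8 were called in SBN/y, where 0.464% of all probe sets were. Limma gave 3 of the 8 (Slc12a3, Stk39, Wnk1) an unadjusted p under 0.05 there. The exact permutation test called 0 of all probe sets in SBN/y. Its smallest possible p is 0.000583 before adjustment over all probe sets, so its lack of a call there decides nothing about the 8 genes. In SBH/y 2 of 8 (Slc12a3, Wnk1) rose after uninephrectomy and 0 fell, where 8.24% of all probe sets were called, 3.33% higher and 4.91% lower. At an unadjusted limma p under 0.05, 5 of 8 differed there, Slc9a3 upward and Stk39 and Kcnj1 downward besides these. The median effect in the 8 genes was 0.10 in SBN/y and 0.03 in SBH/y. The interaction called 0 of 8, against 1.41% of all probe sets, 0.596% higher and 0.818% lower, with 3 genes (Slc9a3, Stk39, Kcnj1) at an unadjusted limma p under 0.05.

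**Figure D1:**
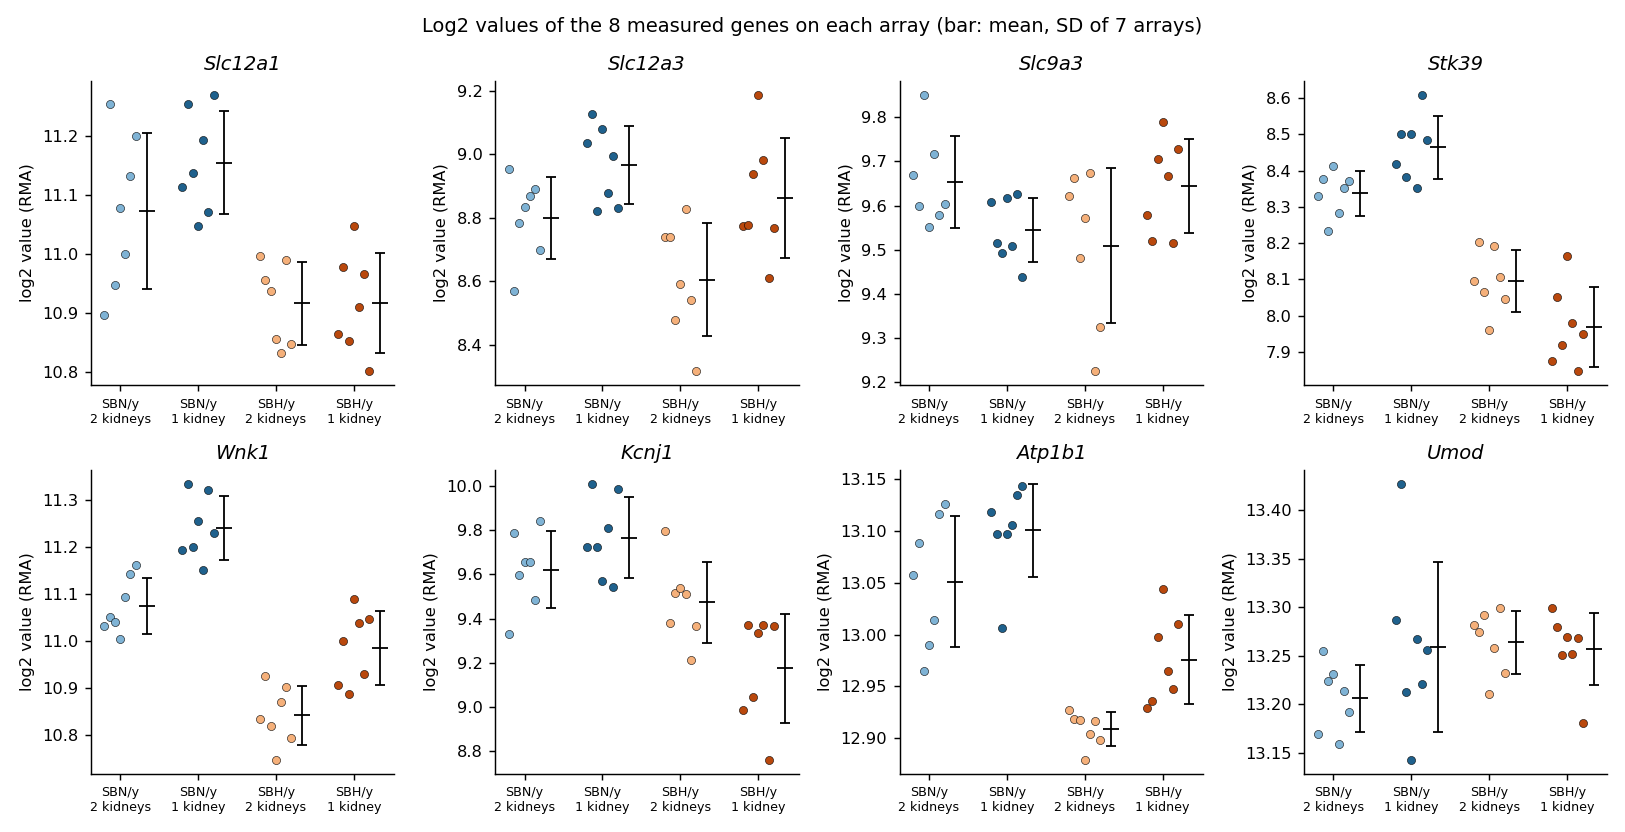
Log2 values (y axis, RMA) of the 8 genes on each of 7 arrays in each of the 4 groups (x axis); the bar beside the points is the mean and its whiskers the SD. Stk39 and Wnk1 lie lower on every SBH/y array than on any SBN/y array with the same number of kidneys.

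**Figure D2:**
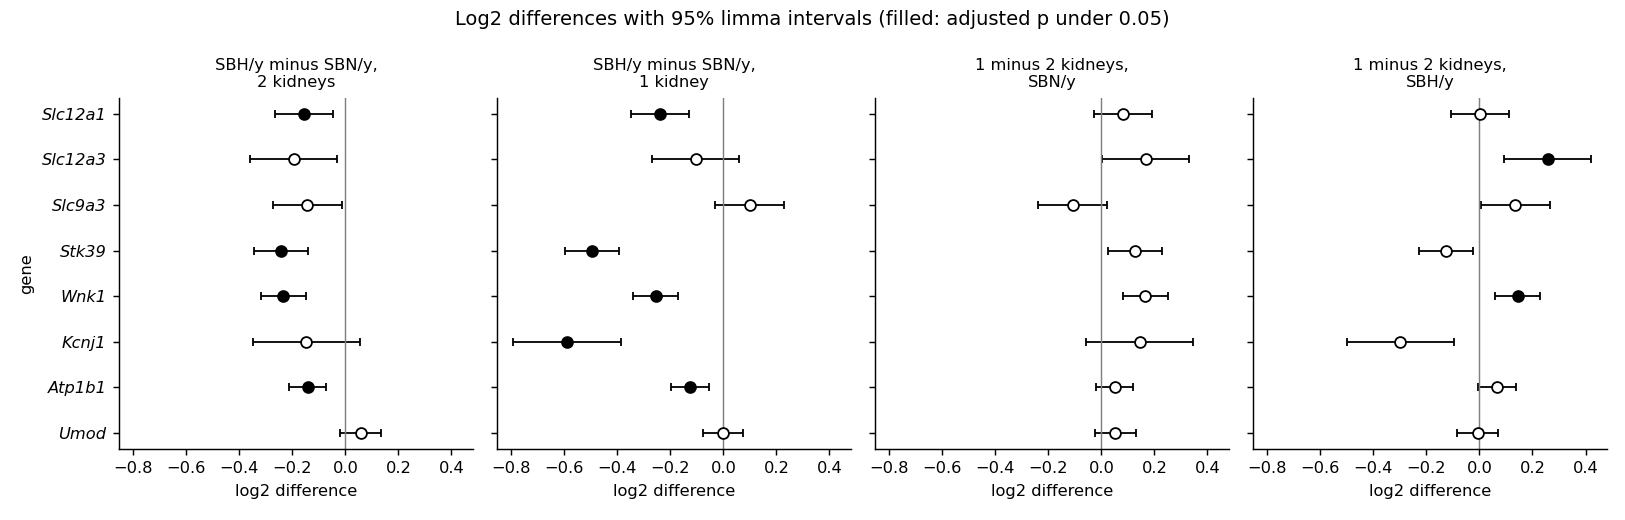
Log2 differences (x axis) of the 8 genes (y axis) in the 4 comparisons, with 95% limma intervals; filled points have an adjusted p under 0.05. The called strain differences all lie below 0, from -0.59 for Kcnj1 to -0.13 for Atp1b1, both with 1 kidney, and the called effects of uninephrectomy, Slc12a3 and Wnk1 in SBH/y, lie above it.

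Slc12a1, the apical cotransporter that takes up sodium, potassium and chloride in the thick ascending limb, ranged from 10.90 over a median of 11.08 to 11.26 in SBN/y with 2 kidneys. With 1 kidney it ranged from 11.05 over 11.14 to 11.27. In SBH/y it ranged from 10.83 over 10.94 to 10.996 with 2 kidneys and from 10.80 over 10.91 to 11.05 with 1. The strains overlapped, with 3 of 7 SBH/y arrays below all SBN/y arrays with 2 kidneys and 6 of 7 with 1 kidney. SBH/y was lower by limma with 2 kidneys (-0.16 ± 0.05, a ratio of 0.897, adjusted p = 0.0388) and with 1 (-0.24 ± 0.05, a ratio of 0.848, adjusted p = 0.00113). The call with 2 kidneys was lost without any of 8 arrays, replicates 2, 4, 6 and 7 of SBN/y and 3, 4, 5 and 7 of SBH/y, with adjusted limma p between 0.0520 and 0.0980. It was also lost when only the 2 groups were fitted (limma adjusted p = 0.0815) and by the exact permutation test (adjusted p = 0.0868). The uninephrectomy effect was 0.08 ± 0.05 in SBN/y (limma adjusted p = 0.747) and 0.00 ± 0.05 in SBH/y (limma adjusted p = 0.995), with a 95% interval from -0.11 to 0.11 in SBH/y.

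Slc12a3, the target of thiazide diuretics, ranged from 8.57 over a median of 8.83 to 8.95 in SBN/y with 2 kidneys and from 8.82 over 8.997 to 9.13 with 1. In SBH/y it ranged from 8.32 over 8.59 to 8.83 with 2 kidneys and from 8.61 over 8.78 to 9.19 with 1. All groups overlapped. In SBH/y 3 of 7 arrays with 1 kidney lay above all with 2, and Slc12a3 rose by 0.26 ± 0.08 (a ratio of 1.20, limma adjusted p = 0.0416). In SBN/y 4 of 7 arrays with 1 kidney lay above all with 2, and the difference was 0.17 ± 0.08 (limma adjusted p = 0.552). The interaction was 0.09 ± 0.11 (limma adjusted p = 0.855, 95% interval from -0.14 to 0.32). The call in SBH/y was lost without any of 7 arrays, replicates 3, 4, 6 and 7 with 2 kidneys and 3, 4 and 5 with 1, with adjusted limma p between 0.0624 and 0.117, when only the 2 groups were fitted (0.0927) and by the exact permutation test (0.148). The strain difference was -0.19 ± 0.08 with 2 kidneys (limma adjusted p = 0.0965) and -0.10 ± 0.08 with 1 (limma adjusted p = 0.424). Limma called the first after quantile normalization (adjusted p = 0.0456) and without replicate 2 of SBN/y or 5 of SBH/y (0.0430 and 0.0493). By the exact permutation test it was not called (adjusted p = 0.156).

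Slc9a3, the apical sodium-proton exchanger of the proximal tubule, ranged from 9.55 over a median of 9.60 to 9.85 in SBN/y with 2 kidneys and from 9.44 over 9.52 to 9.63 with 1. In SBH/y it ranged from 9.22 over 9.57 to 9.67 with 2 kidneys and from 9.52 over 9.67 to 9.79 with 1. The order of the means turned around: SBN/y lay above SBH/y with 2 kidneys (9.65 ± 0.10 and 9.51 ± 0.17) and below it with 1 (9.54 ± 0.07 and 9.64 ± 0.11). None of these differences was called by limma, with adjusted p of 0.127 with 2 kidneys and 0.316 with 1, and neither was the interaction (0.24 ± 0.09, adjusted p = 0.219). All groups overlapped. The 2 lowest SBH/y arrays with 2 kidneys lay below every other array.

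Stk39, the kinase that carries the WNK signal to the cotransporters, ranged from 8.23 over a median of 8.35 to 8.41 in SBN/y with 2 kidneys and from 8.35 over 8.49 to 8.61 with 1. In SBH/y it ranged from 7.96 over 8.10 to 8.20 with 2 kidneys and from 7.85 over 7.95 to 8.16 with 1. The strains did not overlap in either state. SBH/y was lower by limma, at -0.24 ± 0.05 with 2 kidneys (a ratio of 0.846, adjusted p = 0.000583) and at -0.50 ± 0.05 with 1 (a ratio of 0.709, adjusted p = 3.58e-09). The uninephrectomy effects had opposite signs, 0.13 ± 0.05 in SBN/y (limma adjusted p = 0.383) and -0.13 ± 0.05 in SBH/y (limma adjusted p = 0.122, but 0.0405 without replicate 4 of SBH/y with 1 kidney). The exact permutation test did not call the effect in SBH/y (adjusted p = 0.206). The interaction was -0.25 ± 0.07, with a limma adjusted p of 0.0622. It was called with trended and robust limma (0.0456), with array weights (0.0440) and with the dimmest 40% of probe sets left out (0.0351). It was also called without replicate 4 of SBH/y with 2 kidneys or replicate 2 or 4 with 1 kidney, with adjusted limma p between 0.0229 and 0.0442.

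The other probe set of Stk39 gave the same directions in the strain differences, -0.16 ± 0.05 with 2 kidneys (limma adjusted p = 0.0151) and -0.33 ± 0.05 with 1 (limma adjusted p = 4.83e-06). In it the strains overlapped with 2 kidneys, with 4 of 7 SBH/y arrays below all SBN/y arrays, and did not overlap with 1. Its interaction was -0.16 ± 0.07 (limma adjusted p = 0.322).

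Wnk1, a kinase upstream of Stk39, ranged from 11.004 over a median of 11.05 to 11.16 in SBN/y with 2 kidneys and from 11.15 over 11.23 to 11.33 with 1. In SBH/y it ranged from 10.75 over 10.83 to 10.93 with 2 kidneys and from 10.89 over 10.999 to 11.09 with 1. The strains did not overlap in either state, and the order of the means was SBN/y with 1 kidney, SBN/y with 2, SBH/y with 1 and SBH/y with 2. SBH/y was lower by limma, at -0.23 ± 0.04 with 2 kidneys (a ratio of 0.851, adjusted p = 0.000109) and at -0.26 ± 0.04 with 1 (a ratio of 0.837, adjusted p = 2.23e-05). After uninephrectomy Wnk1 rose by 0.14 ± 0.04 in SBH/y (limma adjusted p = 0.0301), and in SBN/y the difference was 0.17 ± 0.04 (limma adjusted p = 0.0735). In SBN/y 6 of 7 arrays with 1 kidney lay above all with 2, and in SBH/y 5 of 7. The interaction was -0.02 ± 0.06 (limma adjusted p = 0.944, 95% interval from -0.14 to 0.10). The call in SBH/y was lost without any of 7 arrays, replicates 1, 3, 4 and 7 with 2 kidneys and 4, 5 and 7 with 1, with adjusted limma p between 0.0516 and 0.0762, when only the 2 groups were fitted (0.0757) and by the exact permutation test (0.0624). In SBN/y Wnk1 was called with trended and robust limma (0.0223) and with the dimmest 40% of probe sets left out (0.0363). The exact permutation test did not call it there (adjusted p = 0.176), but that test called 0 of all probe sets in SBN/y.

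Wnk1 is known for a long form made in most tissues and a short form without the kinase domain, made from an inner start in the distal tubule. Which form each probe set reads was not analysed here. The second brightest probe set of Wnk1 was also lower in SBH/y, at -0.33 ± 0.07 with 2 kidneys (limma adjusted p = 0.00143) and -0.47 ± 0.07 with 1 (limma adjusted p = 9.85e-06), and its effects of uninephrectomy were not called. In it the strains overlapped with 2 kidneys, with 0 of 7 SBH/y arrays below all SBN/y arrays, and did not overlap with 1. The other 3 probe sets lay below the lowest array median of 5.72, and limma called none of them in any comparison. Such a dim probe set gives no evidence on the level of its transcript.

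**Figure D3:**
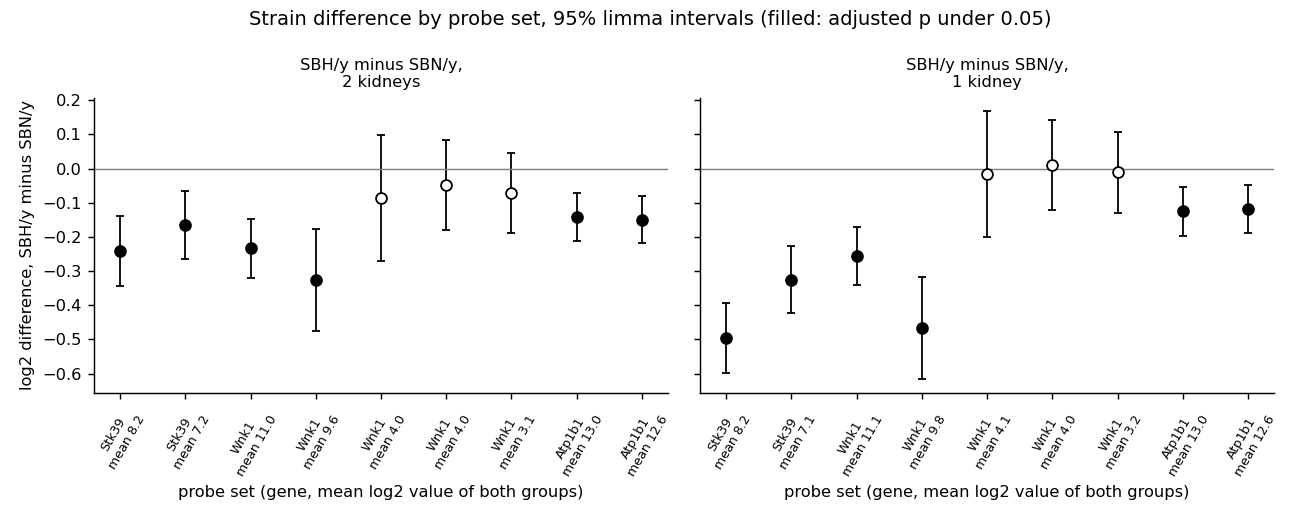
Strain difference (y axis, log2, SBH/y minus SBN/y, 95% limma intervals) for each probe set of Stk39, Wnk1 and Atp1b1 (x axis, with the mean log2 value of both groups), with 2 kidneys on the left and 1 on the right; filled points have an adjusted p under 0.05. Both probe sets of Stk39 and of Atp1b1 lie below 0, as do the 2 bright ones of Wnk1, while the 3 dim ones of Wnk1 have intervals across 0.

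Kcnj1, the potassium channel of the thick ascending limb and collecting duct, ranged from 9.33 over a median of 9.66 to 9.84 in SBN/y with 2 kidneys and from 9.54 over 9.73 to 10.01 with 1. In SBH/y it ranged from 9.21 over 9.51 to 9.80 with 2 kidneys and from 8.76 over 9.33 to 9.37 with 1. With 1 kidney the strains did not overlap, and SBH/y was lower, at -0.59 ± 0.10 (a ratio of 0.664, limma adjusted p = 2.88e-05). With 2 kidneys they overlapped, with a difference of -0.15 ± 0.10 (limma adjusted p = 0.348). The uninephrectomy effect was 0.14 ± 0.10 in SBN/y (limma adjusted p = 0.768) and -0.30 ± 0.10 in SBH/y (limma adjusted p = 0.0582), and the interaction -0.44 ± 0.14 (limma adjusted p = 0.121). Limma with array weights called both (adjusted p = 0.0171 and 0.0394 with limma). The effect in SBH/y was also called with the dimmest 40% of probe sets left out (0.0414) and without any of 5 arrays, replicate 1 of SBN/y with 2 kidneys, 6 of SBH/y with 2 and 2, 5 and 7 of SBH/y with 1, with adjusted limma p between 0.0287 and 0.0498. By the exact permutation test the effect in SBH/y was not called (adjusted p = 0.145). The 7 SBH/y values with 1 kidney fell into a set of 4 between 9.33 and 9.37 and a set of 3 between 8.76 and 9.04.

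Atp1b1 was lower in SBH/y with 2 kidneys, where it ranged from 12.88 over a median of 12.92 to 12.93, than in SBN/y, where it ranged from 12.97 over 13.06 to 13.13. These groups did not overlap (-0.14 ± 0.03, a ratio of 0.906, limma adjusted p = 0.00322). With 1 kidney it ranged from 12.93 over 12.96 to 13.04 in SBH/y and from 13.01 over 13.11 to 13.14 in SBN/y, and the groups overlapped (-0.13 ± 0.03, limma adjusted p = 0.00780). All 7 SBH/y arrays with 1 kidney lay above those with 2, where the groups of 1.96% of all probe sets did not overlap, yet limma did not call the effect of 0.07 ± 0.03 (adjusted p = 0.268). The exact permutation test did (adjusted p = 0.0298 over all probe sets). The other probe set of Atp1b1 gave -0.15 ± 0.03 and -0.12 ± 0.03 for the strain differences. For the effect in SBH/y it gave 0.06 ± 0.03, and the groups overlapped, with 5 of 7 arrays with 1 kidney above all with 2.

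Groups that did not overlap were thus found, by brightest probe sets, for 3 of 8 genes between strains with 2 kidneys (Stk39, Wnk1, Atp1b1). Of all probe sets 6.82% had such groups. Between strains with 1 kidney they were found for 3 of 8 (Stk39, Wnk1, Kcnj1), against 9.15%. For uninephrectomy the counts were 0 of 8 in SBN/y, against 0.409%, and 1 of 8 in SBH/y.

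Umod had group means of 13.21 ± 0.03, 13.26 ± 0.09, 13.26 ± 0.03 and 13.26 ± 0.04 in SBN/y with 2 and 1 kidneys and SBH/y with 2 and 1 kidneys. The groups overlapped in every comparison and limma called none. Umod lay at percentile 99.95 to 99.96 of all probe sets, and whether signal so bright still follows the RNA level was not tested. With 2 kidneys 5 of 7 SBH/y arrays lay above all SBN/y arrays (exact permutation test, p = 0.00991, 0.0610 adjusted over all probe sets). The strain difference was 0.06 ± 0.04 with 2 kidneys (limma adjusted p = 0.323) and -0.06 after quantile normalization, and 0.00 ± 0.04 with 1 kidney, with a 95% interval from -0.08 to 0.07.

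Markers of the nephron segments moved with the strain. Of 8 other thick ascending limb markers 5 were lower in SBH/y with 2 kidneys, with Casr at -1.12 ± 0.06 and Cldn16 at -0.46 ± 0.05, and their mean lay between 8.19 and 8.27 in SBH/y and between 8.45 and 8.61 in SBN/y. With 1 kidney 6 of 8 were lower and 1 higher (Cldn19, at 0.29 ± 0.07). Of 7 distal tubule markers 3 (Calb1, Slc8a1, Klk1) were lower in both states, with Calb1, a calcium-binding protein, at -0.86 ± 0.11 with 2 kidneys. After uninephrectomy Calb1 and Slc8a1, a sodium-calcium exchanger, rose in both strains, beside the rise of Slc12a3 in SBH/y: Calb1 by 0.54 ± 0.11 in SBN/y and 0.38 ± 0.11 in SBH/y, and Slc8a1 by 0.44 ± 0.07 and 0.42 ± 0.07. Klk1 fell by 0.31 in SBH/y, and the other distal markers were not called. Of the thick ascending limb markers Cldn16 alone was called after uninephrectomy, higher by 0.22 ± 0.05 in SBN/y and 0.21 ± 0.05 in SBH/y. Of 9 proximal tubule markers 1 was higher in SBH/y with 2 kidneys and 5 with 1, and of 9 collecting duct markers 5 and 6 were lower. Their part in the differences of the transport genes was not tested beyond the within-array differences that follow, and in whole kidney fewer cells of a segment and less RNA per cell cannot be told apart. All tests in this paragraph are limma's.

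Slc12a1, Kcnj1, Umod, Stk39, Slc12a3 and Slc9a3 were also set against the mean of their segments' markers on the same array. Wnk1 and Atp1b1 were not. Exact two-sided permutation tests of 7 arrays against 7 were adjusted over 28 such tests, of which 5 were called higher and 7 lower. The smallest p such a test can give is 0.000583. Umod minus the thick ascending limb markers was higher in SBH/y by 0.35 with 2 kidneys (5.03 ± 0.02 against 4.68 ± 0.07) and by 0.38 with 1 (4.99 ± 0.03 against 4.61 ± 0.07). In both, 7 of 7 SBH/y arrays lay above all SBN/y arrays (exact permutation test, adjusted p = 0.00408). Slc12a1 minus these markers was higher in SBH/y by 0.13 and 0.14 (exact permutation test, adjusted p = 0.0356 and 0.0224), though the first was lost without any of 9 arrays, replicates 1, 3, 5 and 6 of SBN/y and 1, 2, 3, 4 and 6 of SBH/y. The second had an adjusted p of 0.0556 by the same exact test without the 2 arrays of opposite clock score described next. Against the median of the markers these differences were larger, 0.31 and 0.32 for Slc12a1 and 0.52 and 0.55 for Umod, with adjusted p between 0.00326 and 0.00816 by exact permutation tests. Slc9a3 minus the proximal tubule markers was lower in SBH/y with 2 kidneys, at -0.26, on 7 of 7 arrays (exact permutation test, adjusted p = 0.00408), and was -0.09 with 1 kidney (exact permutation test, adjusted p = 0.224). After uninephrectomy in SBH/y it was 0.17 (adjusted p = 0.0904 by the same exact test) and 0.21 without the 2 arrays of opposite clock score (0.0408).

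For Slc12a3 and Stk39 the choice of the markers' mean or median turned directions, and over the 28 tests the median gave 7 higher and 5 lower calls. Stk39 minus the distal markers fell after uninephrectomy in SBH/y by 0.22 against their mean, on 7 of 7 arrays (exact permutation test, adjusted p = 0.00408), and was -0.07 against their median (exact permutation test, adjusted p = 0.204). Between strains with 2 kidneys it was 0.05 against the mean and -0.22 against the median, and Slc12a3 minus the distal markers 0.10 and -0.18. With 1 kidney Slc12a3 was higher against the mean, by 0.26 (exact permutation test, adjusted p = 0.0210), and was 0.01 against the median. After uninephrectomy in SBH/y it was 0.17 against the mean and 0.32 against the median, with adjusted p of 0.122 and 0.00907 by exact permutation tests. Between strains with 1 kidney Stk39 minus the thick ascending limb markers was -0.11 against the mean (exact permutation test, adjusted p = 0.0476) and 0.06 against the median. The call against the mean was lost without any of 21 of the 28 arrays. Without the 2 arrays of opposite clock score its adjusted p was 0.0889 by the same exact test. With 2 kidneys the median gave calls that the mean did not, for Stk39 (0.22 against 0.05) and for Kcnj1 (0.32 against 0.14) minus the thick ascending limb markers, with adjusted p of 0.00816 and 0.0449 by exact permutation tests against the median. After uninephrectomy in SBH/y Kcnj1 minus the thick ascending limb markers was -0.33 by both measures, with adjusted p of 0.0356 and 0.0590 by exact permutation tests. The first call was lost without any of replicates 1 to 5 with 2 kidneys or 1, 3 and 6 with 1. By the same test 3 more differences were lower: Stk39 minus the thick ascending limb markers after uninephrectomy in SBH/y (-0.16, adjusted p = 0.0210), Stk39 minus the distal markers between strains with 1 kidney (-0.14, adjusted p = 0.0196, and -0.38 against the median), and Umod minus its markers after uninephrectomy in SBH/y (-0.04, adjusted p = 0.0356). The last was lost after quantile normalization (0.135), against the median (0.483) and without any of replicates 2 to 6 with 2 kidneys.

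The arrays also differed in a clock gene score, the mean of 12 centred circadian clock genes, 9 of them with the sign turned. It was 0.01 ± 0.31 in SBN/y with 2 kidneys, 0.19 ± 0.47 with 1, 0.52 ± 0.10 in SBH/y with 2 and -0.72 ± 0.61 with 1. In each group with 1 kidney 1 array had the opposite sign to the others: replicate 6 of SBN/y at -0.83, and replicate 2 of SBH/y at 0.61. On that SBN/y array Slc9a3 (9.63) and Stk39 (8.61) were the highest of the 7 and Kcnj1 (9.54) the lowest. On that SBH/y array Kcnj1 (9.37) was the highest of the 7 and Slc9a3 (9.52) the 6th. For Kcnj1 the interaction, both uninephrectomy effects and the strain difference with 1 kidney were larger without these arrays and smaller with the score as a covariate. Its strain difference with 2 kidneys stayed at -0.15 without these arrays and was larger with the covariate, at -0.24 (limma adjusted p = 0.135). Without both arrays its limma interaction was -0.51 (adjusted p = 0.0428) and its effect in SBH/y -0.33 (adjusted p = 0.0339). With the score as a covariate in limma they were -0.19 (adjusted p = 0.999) and -0.07 (adjusted p = 0.966), while its strain difference with 1 kidney was -0.43 (adjusted p = 0.0172). For Slc9a3 the same limma fit gave an interaction of 0.10 (adjusted p = 0.999) and an effect in SBH/y of 0.01 (adjusted p = 0.994). For Stk39 it gave an interaction of -0.25 (limma adjusted p = 0.941). With the score as a covariate in limma, the uninephrectomy effect in SBH/y was 0.16 for Slc12a3 (adjusted p = 0.840) and 0.11 for Wnk1 (adjusted p = 0.720), and the strain difference of Slc12a1 with 1 kidney -0.18 (adjusted p = 0.0866). In SBH/y the score separated 6 of 7 arrays with 1 kidney from those with 2, so score and operation cannot be told apart. Markers of tubular injury and of leukocytes moved too: 6 of 8 and 4 of 10 rose after uninephrectomy in SBH/y by limma, with Havcr1 (KIM-1), a marker of injured proximal tubule, at 2.79 ± 0.23 (adjusted p = 4.37e-09). In SBN/y limma called 0 of 8 and 0 of 10, with 2 and 0 at an unadjusted p under 0.05. Their part in the differences of the transport genes was not tested.

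**Figure D4:**
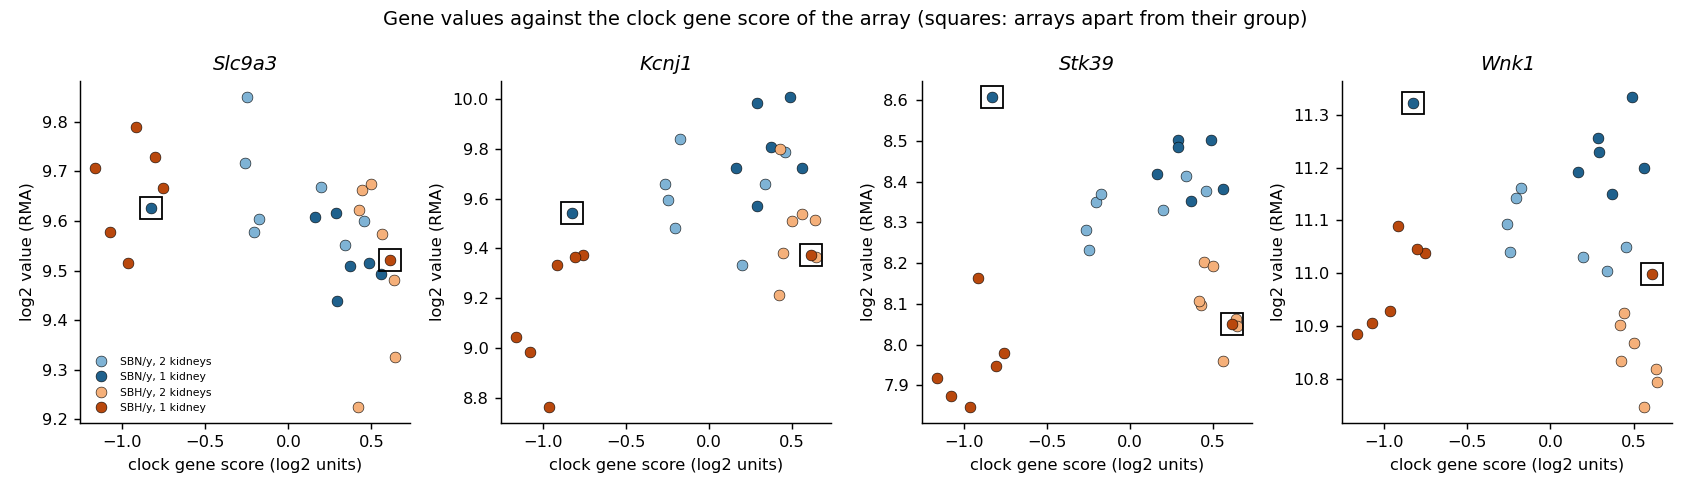
Log2 values (y axis, RMA) of Slc9a3, Kcnj1, Stk39 and Wnk1 against the clock gene score of the same array (x axis, log2 units), coloured by group; squares mark replicate 6 of SBN/y and replicate 2 of SBH/y, both with 1 kidney. The other SBH/y arrays with 1 kidney lie between -1.16 and -0.76 on the score, to the left of every array but the marked SBN/y one.

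Across arrays, 3 of 28 pairs of the transport genes varied together after group means were subtracted, with permutation p from 100000 reassignments within groups, adjusted over the 28 pairs. For Stk39 and Wnk1, r was 0.71 (permutation p = 0.00016, adjusted 0.00448) and rho 0.69 (adjusted 0.00616), over 28 arrays. By group r was 0.02 and 0.88 in SBN/y with 2 and 1 kidneys and 0.89 and 0.78 in SBH/y. It was 0.63 over all groups without the 2 arrays farthest from the median of Stk39. For Slc12a3 and Slc9a3 r was 0.63 (adjusted permutation p = 0.0107) and rho 0.60, with r of 0.54 without 2 arrays. In the same order of groups r was 0.13, 0.65, 0.79 and 0.79. For Slc12a1 and Umod r was 0.56 (adjusted permutation p = 0.0107) and rho 0.58, with r of 0.53 without 2 arrays. By group it was 0.56, 0.70, 0.81 and 0.55. Genes on 1 array share its RNA and its normalization. How many pairs of other genes vary together as closely was not counted.

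**Figure D5:**
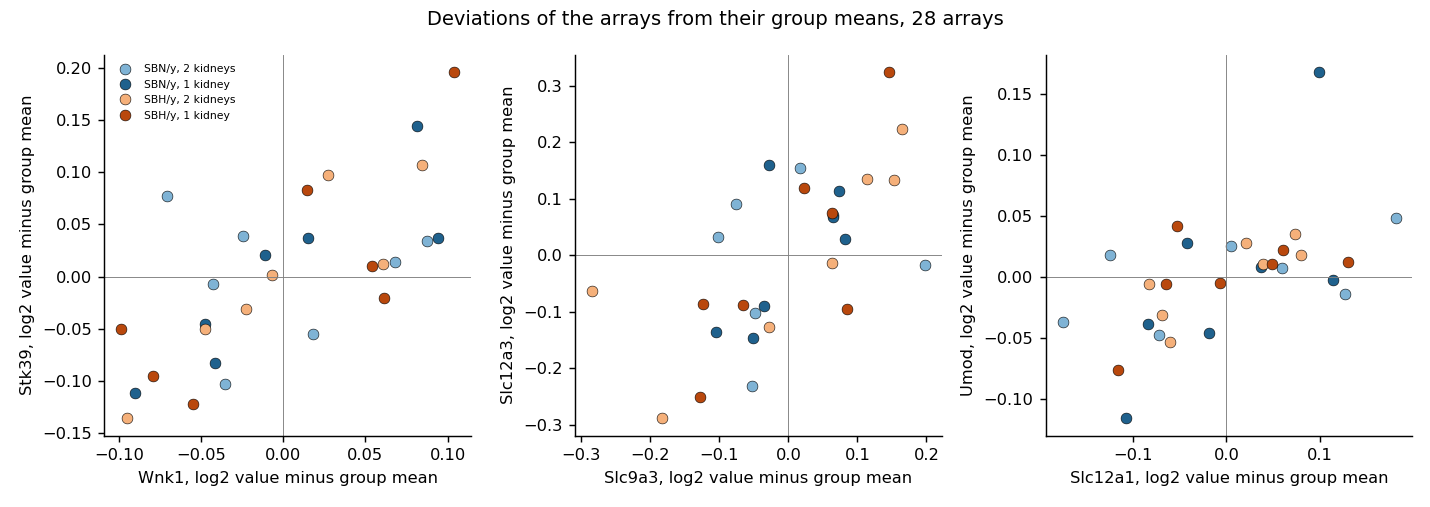
Deviation of each of 28 arrays from its group mean (log2, both axes) for Wnk1 and Stk39, Slc9a3 and Slc12a3, and Slc12a1 and Umod, coloured by group. Taken over all 28 arrays, points run from lower left to upper right in each panel, with r of 0.71, 0.63 and 0.56.

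As a description over the same 28 arrays, Stk39 was the gene most like Wnk1 among 14216 others, with r of 0.71, followed by Srebf2 (0.70) and Rimkla (0.69). Stk39 itself was most like Tp53inp2 (0.75), Srebf2 (0.74) and Hk1 (0.73), with Wnk1 at rank 6. In the other pairs named above many other genes were more alike. Slc9a3 had rank 96 for Slc12a3, and Slc12a3 rank 163 for Slc9a3. Umod had rank 62 for Slc12a1, and Slc12a1 rank 42 for Umod. The genes most like Slc12a1 were Hoxd8 (0.76), Hoxa10 (0.76) and Ngb (0.71), those most like Slc12a3 Lrp10 (0.80), Atp6v0a1 (0.80) and Syngr2 (0.79), and those most like Slc9a3 Rhbdd2 (0.78), Ube2q2 (0.76) and Ppp1r16b (0.76). For Kcnj1 they were Tmem276 (0.78), Map2 (0.73) and Sec22b (0.73), for Atp1b1 Tfap2b (0.72), Arid1a (0.71) and Fam81a (0.71), and for Umod Actg1 (0.73), Hoxd9 (0.71) and Entpd2 (0.69).

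Of 15 other regulators of these kinases 2 were lower in SBH/y with 2 kidneys by limma: Ppp1r1a, a phosphatase inhibitor, at -0.52 ± 0.05 (adjusted p = 3.56e-10), and Klhl3, the adaptor that marks WNK kinases for degradation, at -0.28 ± 0.07 (adjusted p = 0.00781). With 1 kidney 3 were lower and 1 higher: Ppp1r1a at -0.70 ± 0.05, Klhl3 at -0.46 ± 0.07, the aldosterone-induced kinase Sgk1 at -0.49 ± 0.11, and Cab39, a scaffold that activates Stk39, at 0.11 ± 0.03. After uninephrectomy limma called 0 of the 15 in SBN/y, in SBH/y and in the interaction, with 1, 2 and 2 at an unadjusted p under 0.05. Their median difference was -0.03 with 2 kidneys and -0.02 with 1, beside -0.016 and -0.011 for all probe sets.

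Other transporters of the same families went both ways by limma. Of 6 other cation-chloride cotransporters Slc12a9 alone was called, higher in SBH/y by 0.15 ± 0.05 with 2 kidneys and 0.22 ± 0.05 with 1. Of 9 other exchangers and scaffolds of Slc9a3, the scaffold Nherf2 was lower in SBH/y, at -0.26 ± 0.06 and -0.22 ± 0.06, the exchanger Slc9a4 was higher with 2 kidneys by 0.35 ± 0.07, and the scaffolds Nherf1 (0.18 ± 0.05) and Pdzk1 (0.17 ± 0.04) were higher with 1. After uninephrectomy in SBH/y Slc9a4 fell by 0.24 and Dpp4, a peptidase that binds Slc9a3, fell by 0.26.

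Channel and pump genes were mostly lower where called. Of 5 other potassium and chloride channel genes, Kcnj16, a basolateral potassium channel, was lower in SBH/y with 2 kidneys, at -0.22 ± 0.05, and with 1 kidney Kcnj16 (-0.29 ± 0.05), its partner Kcnj10 (-0.35 ± 0.08) and the chloride channel subunit Bsnd (-0.36 ± 0.07) were lower. Of 5 other pump subunits and regulators 3 were lower in both states (Fxyd2, Atp1b2, Atp1b3), with Atp1b2 at -0.37 ± 0.05 with 1 kidney. The regulator Fxyd4 was higher in SBH/y, by 0.28 ± 0.07 and 0.45 ± 0.07. Fxyd5, another regulator of the pump, was higher in SBH/y with 1 kidney (0.58 ± 0.06) and rose there after uninephrectomy by 0.37 ± 0.06, with a called interaction (0.44 ± 0.09, limma adjusted p = 0.00772). Atp1b2 fell after uninephrectomy in SBH/y by 0.17 (limma adjusted p = 0.0186), and Bsnd by 0.23 (limma adjusted p = 0.0356). In the macula densa list of 3 genes Ptgs2, the prostaglandin-forming enzyme COX-2, was lower in SBH/y with 2 kidneys (-0.47 ± 0.15) and higher with 1 (0.60 ± 0.15), with a called interaction (1.07 ± 0.21, limma adjusted p = 0.00634). Avpr1a was lower with 2 kidneys at -0.26 ± 0.09. This list was dim: the group means of its 3 genes together lay between 4.99 and 5.25, below the lowest array median of 5.72.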

How the data were processed

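Affymetrix rat arrays of 28 whole-kidney samples were used, 7 in each of 4 groups taken from the labels. Per the labels' protocols, total RNA was column-purified and biotin-labelled, and per the submitters' processing notes GCOS and RMA made the values. Neither version is given in the sources used here. The authors deposited 1 table of log2 values for 31099 probe sets. RMA quantile-normalizes the arrays, so differences in total RNA are not seen. Array medians lay between 5.72 and 5.77, correlations between arrays between 0.985 and 0.997, and no 2 arrays were identical. The number of arrays limits the precision, and signal over background was not measured.

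After leaving out 57 control probe sets, limma 3.58.1 in R 4.3.3 (lmFit, eBayes) was fitted to 31042 probe sets with 1 mean per group over all 28 arrays, with Benjamini-Hochberg adjustment over all probe sets in each of 5 comparisons and a threshold of 0.05. It was tested on simulated data. Symbols came from the platform annotation, updated by gene identifier with RefSeq's GRCr8 table: 20826 probe sets had 1 symbol, 436 several and 9780 none. Promoter windows were RefSeq's; Atp1b1 had none there. The labels do not say that replicate numbers pair samples, so the main fit did not use them. After group means were subtracted, same-numbered samples of 2 groups correlated over 0.1 in 3 to 5 of 7 pairs. A fit with the number as a block is given below. The members and lists were chosen with earlier results of these data known. The text names the 9 members, up to 4 called genes of each other list in each comparison with the smallest p, and the 3 genes most like each member.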

Additional observations from a re-analysis of the deposited data

Results flagged for a closer look

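Of 60 sets of 7 values (genes or marker means within a group) 6 held an array apart from the other 6, and chance alone gives about 1 in 20. Atp1b1 was 13.01 on replicate 3 of SBN/y with 1 kidney, the lowest of its group. Umod was 13.18 on replicate 7 of SBH/y with 1 kidney, the lowest of its group. The mean of the inner medulla markers was 9.37 on replicate 2 of SBN/y with 2 kidneys, the highest of its group. The clock gene score was -0.83 on replicate 6 of SBN/y with 1 kidney and 0.61 on replicate 2 of SBH/y with 1 kidney, against the sign of their groups. The mean of the leukocyte markers was 7.24 on that same SBH/y array, the lowest of its group.

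The effect of uninephrectomy differed between the strains by the limma interaction for 4 genes named beside the members. It was 0.44 for Fxyd5, -0.49 for Klk1, a kallikrein made in the connecting tubule, 1.07 for Ptgs2 and 2.25 for Havcr1. The macula densa list that holds Ptgs2 was dim, as given above.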

How the results depend on the processing

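Each difference of the 8 genes and of genes against segment markers was recomputed under up to 12 alternatives and without each array in turn. Of 511 values under the alternatives 455 kept their direction and their side of the threshold, 17 lost a call, 20 gained one and 19 changed sign. The exact permutation test was adjusted over all probe sets, in place of the planned adjustment over the 8 genes, and it and the removal of 2 arrays together were chosen after seeing the data. The cause of these changes was not tested, and some of the alternatives use fewer samples.

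Uninephrectomy in SBN/y called 69 probe sets higher and 75 lower. With the dimmest 40% left out 104 were higher, with array weights 111 and 114, with only the 2 groups 35 and 25, with the replicate block 127 and 153, and with the exact test 0 and 0. Without 1 array the counts were 31 to 86 and 31 to 82. Of the 8 genes 1 (Wnk1) was higher with the dim ones left out and with trended limma. In SBH/y 1033 were higher and 1525 lower, 45 and 31 with the clock score as covariate, and 656 and 865 with the exact test. Of the 8 genes 0 were higher there with only the 2 groups or the clock score, and 1 with the exact test or the next probe set. With the dim ones left out, array weights, the replicate block or the 2 arrays of opposite clock score removed, 1 (Kcnj1) was lower. Without 1 array 0 to 2 were higher and 0 to 1 lower. With the clock score 2245 and 1874 probe sets were higher and lower between strains with 1 kidney. The interaction called 185 higher and 254 lower, 346 and 553 with array weights, 341 and 471 with the replicate block, 0 and 0 with the clock score, 415 and 562 without the 2 arrays, and 132 to 371 and 170 to 499 without 1 array. Of the 8 genes it called 1 lower with the dim ones left out or trended limma (Stk39) and without the 2 arrays (Kcnj1), 2 with array weights or the replicate block, and 0 to 1 without 1 array. Differences against markers were called lower 4 to 7 times without 1 array.

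The labels do not say whether replicate numbers pair the samples. Each array was most like its own number in 2, 2, 3 and 2 of 7 cases in the 4 comparisons. After group means were subtracted, the mean r of same-numbered arrays was 0.12, 0.13, 0.14 and 0.20. For other numbers it was -0.02, -0.02, -0.02 and -0.03. What same-numbered arrays share was not tested. With the replicate block adjusted limma p was 0.0191 for Kcnj1 in SBH/y, and for the interaction 0.0459 for Stk39 and 0.0393 for Kcnj1.

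Signs changed only for values near 0 or against another summary of the markers. Umod between strains was -0.064 with 2 kidneys after quantile normalization, and with 1 kidney 0.0078 with median centring, 0.021 with the clock score and -0.021 to 0.026 without 1 array. In SBH/y after uninephrectomy Umod was 0.0032 with median centring, 0.024 with the clock score and -0.016 to 0.0058 without 1 array. Slc12a1 there was -0.0013 with quantile normalization, -0.0011 with array weights, -0.0092 without the 2 arrays and -0.021 to 0.020 without 1. With the clock score the interaction was 0.0077 for Slc12a1, -0.020 for Slc12a3 and -0.025 for Atp1b1. Against the median of the markers, Stk39 was 0.058 (thick ascending limb, strains with 1 kidney), -0.22 (distal, strains with 2) and 0.092 (distal, SBN/y after uninephrectomy), Slc12a3 -0.18 (strains with 2) and Slc9a3 -0.049 (SBN/y). In SBN/y after uninephrectomy Slc9a3 against its markers was -0.00085 with quantile normalization and -0.015 without the 2 arrays, and Stk39 against the thick ascending limb -0.016 without them. Without 1 array these SBN/y values ranged from -0.020 to 0.063 for Kcnj1, from -0.016 to 0.024 and from -0.045 to 0.0091 for Stk39 (thick ascending limb and distal), from -0.011 to 0.051 for Slc12a3 and from -0.019 to 0.030 for Slc9a3.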
